A study of Mus musculus with 2 samples.

Results

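The colony stimulating factors and their receptors are a set of secreted growth factors and surface receptors of blood cells, described here as 10 genes of the 55416 in the deposited matrices. The genes were chosen by name: the ligands Csf1, Csf2, Csf3 and Il34, and the receptor genes Csf1r, Csf2ra, Csf2rb, Csf3r, Kit and Flt3. All 10 were listed in both matrices, and they were read in barcodes with at least 200 genes and at most 10% mitochondrial unique molecular identifiers (UMIs, 1 per captured RNA molecule). The study deposited 2 droplet single-cell libraries, 1 from gastrocnemius muscle and 1 from lung, prepared by the Chromium 5' v2 chemistry of 10x Genomics after CD45 magnetic beads had been used to collect cells. In both libraries the labels call the animals "TB mice" and give the genotype as "CAC mouse model", and the series' design text speaks of a tumor-bearing model. The labels used here give no strain, age, treatment or number of mice for either library, and no library from a healthy animal was analysed here. Muscle is therefore set against lung within the same model, and since each tissue has a single unreplicated library, no test could be run and p-values are absent. Intervals below are exact 95% intervals that cover counting error only.

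CSF1 and IL34 both bind the receptor CSF1R, which monocytes and macrophages need to survive and to divide. CSF2 (GM-CSF) signals through an alpha chain, CSF2RA, paired with the common beta chain CSF2RB that the receptors for IL3 and IL5 also use, while CSF3 (G-CSF) acts on neutrophils through CSF3R. KIT and FLT3 are close relatives of CSF1R that answer to stem cell factor (Kitl) and FLT3 ligand (Flt3l), and are known from progenitors, mast cells and innate lymphoid cells, and from dendritic cells.

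After doublet-like barcodes were removed, 2143 muscle and 7638 lung cells remained, with medians of 3054 and 2135 UMIs per cell. Each cell was put in a class when it held at least 3 markers of that class and at least 1 more than of any other class, and no gene of the set is among those markers. The gate placed 1852 muscle and 5988 lung cells, and 331 and 1537 of these lay at the edge of the rule. Contrary to the CD45 label, 15.1% of the gated muscle cells were in leukocyte classes, against 95% of the gated lung cells. The muscle library was led by 1088 endothelial-gated, 209 fibroblast-gated and 171 mural-gated cells, in which Ptprc, the gene for CD45, stood at 1.91, 2.55 and 0 CPM, that is UMIs of the gene per 1e+06 UMIs of the class. In neutrophil-gated cells Ptprc read 879 CPM for muscle, against 626 CPM for lung. The libraries shared 64 barcode sequences, and 26 muscle and 57 lung cells carried one of them. In muscle 59.5% of all deposited barcodes lay over the mitochondrial limit, against 3.22% in lung.

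The plot of the 10 genes by class sets out where each was read. Taken over whole libraries, the ligands Csf3 and Il34 came almost wholly from cells outside the leukocyte classes in muscle, at 98.3% and 89.5% of their UMIs. In lung 96.9% of Csf2 UMIs lay in epithelial-gated cells. The receptors Csf1r, Csf2ra, Csf3r and Flt3 lay in leukocyte classes in both tissues, with 83.0% to 98.0% of their muscle UMIs and 84.8% to 95% of their lung UMIs there. Csf2rb and Kit were the exceptions among the receptors. In muscle, leukocyte classes held 53.7% of Csf2rb UMIs and 23.8% of Kit UMIs, and in lung they held 86.7% and 68.5%.

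**Figure D1:**
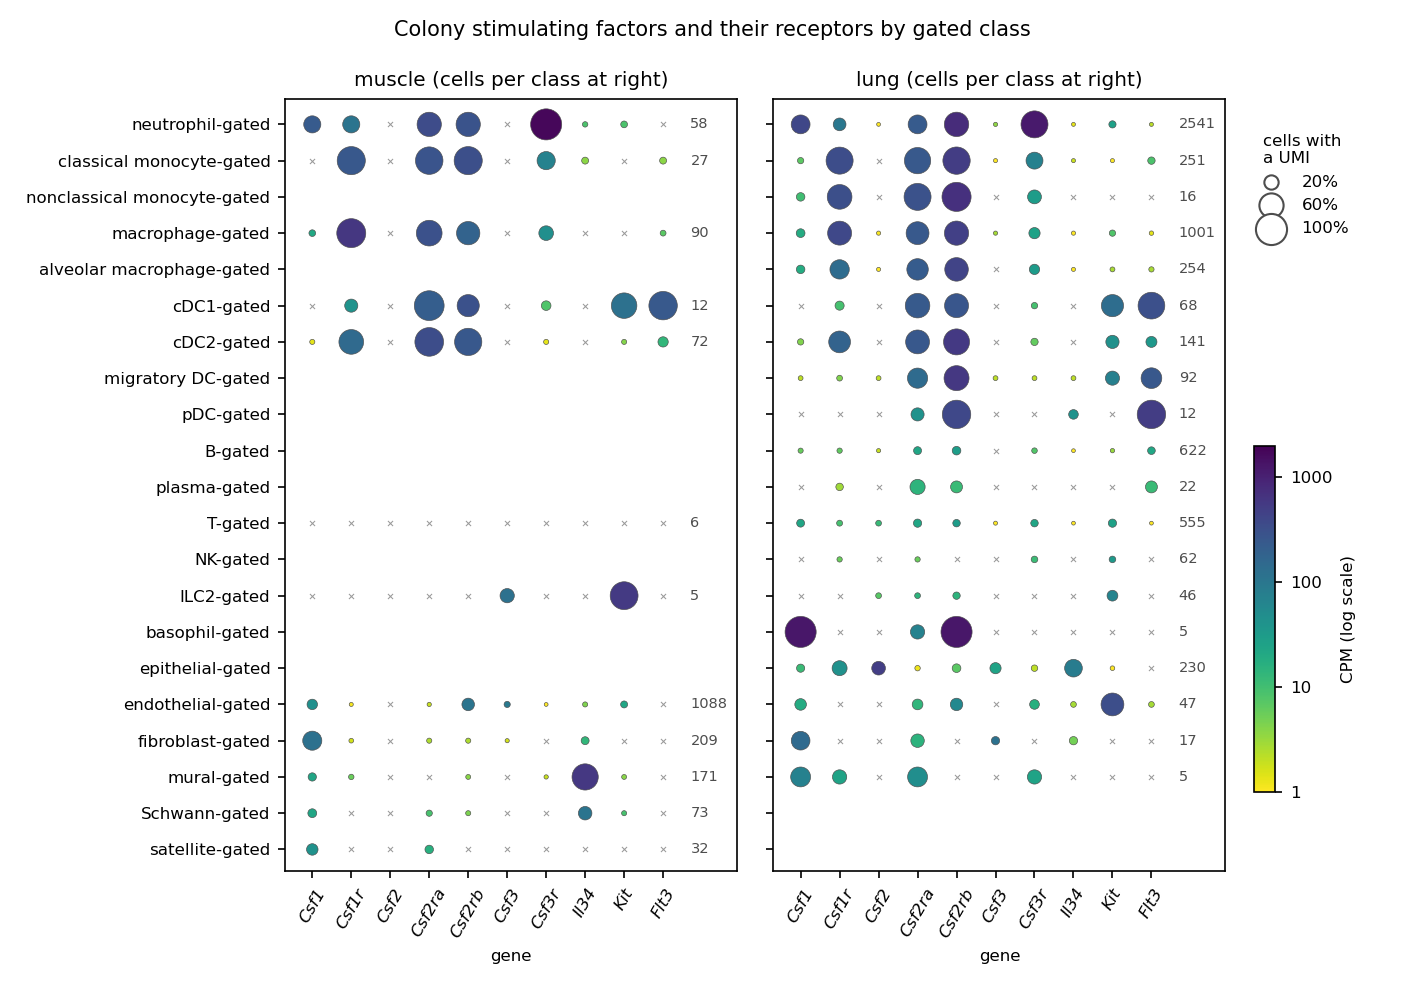
Each of the 10 genes (x axis) in each gated class (y axis) of muscle (left) and lung (right), for classes of at least 5 cells. Colour gives the level in CPM on a log scale, area the percent of cells with a UMI, a cross a count of 0, and the number at the right the cells of the class. Csf3r is deepest in neutrophil-gated cells of both tissues, Il34 in muscle mural-gated cells at 576 CPM, and Csf2 in lung epithelial-gated cells at 508 CPM.

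Csf2, the gene for GM-CSF, had 0 of 8743691 muscle UMIs, which at the floor of 3 counts allows up to 0.343 CPM and a UMI in up to 0.14% of muscle cells, with an exact upper bound of 0.422 CPM. This limits cells with a UMI and not cells that express the gene. The lung library held 1748 Csf2 UMIs, and 1694 of them lay in 42 of the 230 epithelial-gated cells, a class level of 508 CPM (485 to 533). The next class was T-gated cells with 24 UMIs in 12 of 555 cells, or 12 CPM (7.71 to 17.9). Csf2 was not detected in muscle at this depth, and in lung its epithelial reading stood far above every other class. B-gated lung cells, which served as the class that should lack the gene, held 3 UMIs, 1.95 CPM. The share of cells with a UMI was 18.3% among epithelial-gated cells, against 0.482% of B-gated cells, at class medians of 2448.5 and 2089.5 UMIs. After each cell was thinned to 1000 UMIs the shares were 11% and 0.17%.

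The Csf2 reading was uneven among those 42 cells. The 3 highest held 619, 464 and 160 UMIs of Csf2, the median positive cell held 4.5, and the first pair made up 63.9% of the class total. Without these 2 cells the class level was 194 CPM, and with the mitochondrial limit raised to 20%, which also changes the doublet step, it was 176 CPM from 576 Csf2 UMIs. Positive cells were large, with a median of 35584 UMIs, against 1634 in epithelial-gated cells with no Csf2 UMI. Among the 91 epithelial-gated cells with at least 10000 UMIs the level was 545 CPM, and among the 139 smaller cells it was 48.5 CPM, with an upper bound of 84.7. The large cells sat mostly in a cluster led by Krt18, Krt8 and Krt7, and 1685 of the Csf2 UMIs fell in its 105 gated cells. A second cluster of 122 gated cells, led by Wfdc2, Krt8 and Lgals2, held 9, a level of 41.6 CPM.

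A few other genes, picked after the data were seen, are given for the cells with and without a Csf2 UMI, which were themselves chosen by a readout and differ in depth. Cxcl1, a neutrophil chemokine, stood at 265 CPM in the epithelial-gated cells with Csf2 and at 19.8 CPM in those without it. Nfkbia, a feedback inhibitor of NF-kappaB, stood at 854 and 149 CPM in the same order, and Tnf at 138 and 16.0 CPM. Csf3 was 47.3 CPM in the cells with Csf2 and 5.87 CPM in those without, and 17 of the 27 Csf3-positive epithelial-gated cells held Csf2 as well. Epcam, an epithelial adhesion gene, differed far less, at 1494 and 1031 CPM. Ptprc was at 3.43 and 7.48 CPM. Sftpc, the gene for surfactant protein C of alveolar type II cells, had 0 UMIs in the cells with Csf2. No contrast with the cells without Csf2 is drawn from that 0. Within T-gated cells, those with a Cd8a UMI and no Cd4 UMI held 20 of the 24 Csf2 UMIs, or 35.0 CPM, and those with a Cd4 UMI and no Cd8a UMI held 2, or 3.35 CPM.

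Csf3, the gene for G-CSF, had most of its UMIs in a different class in each library. Muscle endothelial-gated cells held 340 of 348 muscle UMIs, 93.0 CPM (83.4 to 103), in 29 of 1088 cells. The lung library held 151 UMIs, of which 80 lay in 27 epithelial-gated cells at 24.0 CPM (19.0 to 29.9) and 23 in a single fibroblast-gated cell. Fibroblast-gated cells of muscle, used as the class for comparison, held 2 UMIs at 1.70 CPM, both in 1 cell, and lung B-gated cells held 0. Since a lung fibroblast-gated cell held 23 UMIs, the fibroblast gate is no firm background for this gene. A Csf3 UMI was seen in 2.67% of muscle endothelial-gated cells and in 0.478% of muscle fibroblast-gated cells, where the class medians were 2837.5 and 4822 UMIs. Thinned to 1000 UMIs, the shares were 1.78% and 0.478%. The lung neutrophil-gated cells held 21 UMIs, 3.52 CPM, and no muscle leukocyte class other than ILC2-gated cells, with 2 UMIs, held any.

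Within muscle endothelium the Csf3 UMIs lay mostly in cells with venule genes. The 101 endothelial-gated cells with at least 2 venule genes (Selp, Ackr1, Lrg1, Plvap) held 289 of the 340 UMIs, a level of 487 CPM (433 to 547), in 22 cells. The 698 cells with capillary genes (Gpihbp1, Rgcc, Car4, Aqp1) and the 83 with arterial genes (Gja5, Hey1, Sema3g, Stmn2) held 0, and the 206 that met none of these rules held 51, or 85.9 CPM. The 0 of the arterial rule was not met by cluster. A cluster of 79 gated cells with Depp1, Fbln5 and Stmn2 among its leading genes held 7 UMIs, 17.7 CPM (7.10 to 36.4). The cluster led by Plvap and Ackr1 stood at 303 CPM (268 to 342). Of the 29 positive cells, 27 also had a UMI of Selp, the P-selectin gene and one of the venule genes, and 23 had a UMI of Il6. Over all 1088 endothelial-gated cells, 114 had a UMI of Selp and 91 of Il6. The positive cells were deeper, with a median of 6271 UMIs against 2790 in the cells without Csf3. A few cells weighed heavily here too: 108, 33 and 26 UMIs in the top 3, a median of 5 in positive cells, and 54.7 CPM for the whole class without the top 2. These venule-gene cells also read Sele and Vcam1, genes for leukocyte adhesion molecules, at 452 and 366 CPM, against 3.40 and 6.81 CPM in the capillary-gene cells. The vessel genes were chosen after the data had been seen.

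**Figure D2:**
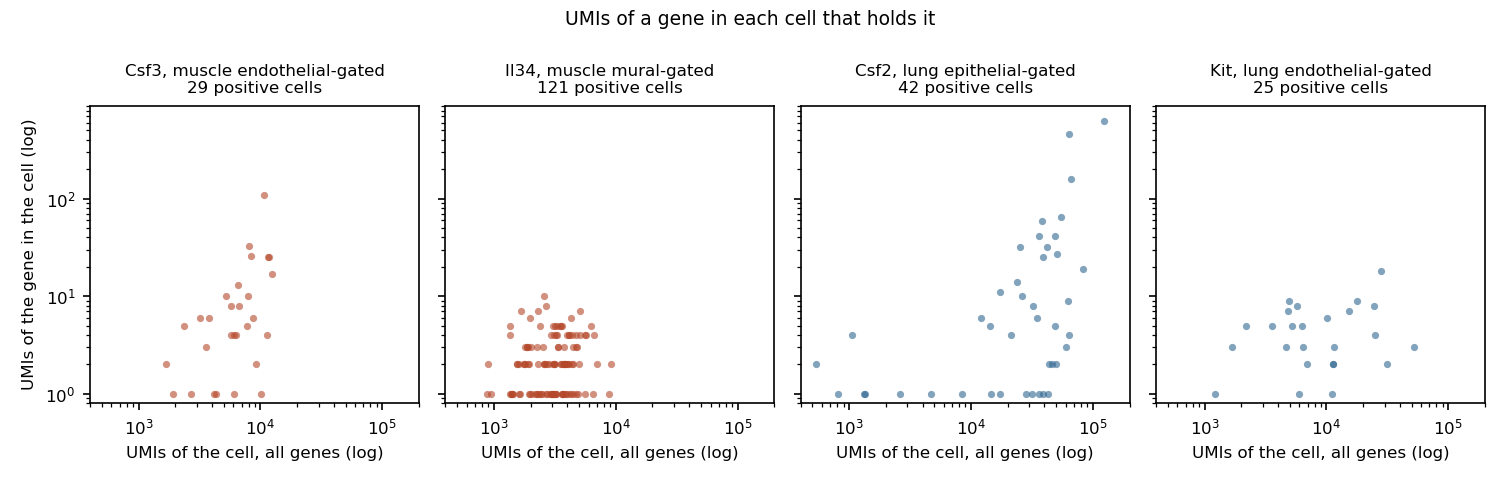
UMIs of a gene in a cell (y axis, log) against that cell's UMIs of all genes (x axis, log), for each cell with at least 1 UMI of the gene: Csf3 and Il34 in muscle at the left, Csf2 and Kit in lung at the right. Il34 in mural-gated cells reaches 10 UMIs at most, while Csf3 reaches 108 and Csf2 reaches 619 in single cells, and most Csf2-positive cells lie above 10000 UMIs.

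Il34, the second ligand of CSF1R and known from neurons and keratinocytes, was read in muscle mural-gated cells, the pericytes and smooth muscle cells that wrap vessels. These held 303 of the 401 muscle UMIs in 121 of 171 cells, 576 CPM (513 to 645), against 8.01 CPM over all other gated muscle cells. Schwann-gated cells came next at 108 CPM (69.4 to 161), then fibroblast-gated cells at 13.6 CPM (7.77 to 22.1). The intervals of these 3 classes do not meet, and mural-gated cells stood highest. Macrophage-gated muscle cells, the class taken to lack Il34, held 0 UMIs in 90 cells. A UMI was seen in 70.8% of mural-gated cells (41.9% after thinning to 1000 UMIs), and the positive cells held a median of 2 UMIs and 10 at most, so the reading was spread over the class. Mural-gated cells with pericyte genes (Kcnj8, Abcc9, Higd1b, Colec11) stood at 741 CPM (626 to 872), and those with smooth muscle genes (Cnn1, Lmod1, Mylk, Pln) at 411 CPM (312 to 532). In lung 280 of the 325 UMIs lay in 72 epithelial-gated cells at 84.0 CPM (74.5 to 94.5), and 278 of these were in the Krt18, Krt8 and Krt7 cluster. B-gated lung cells held 1 UMI.

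Csf1, the other CSF1R ligand, was read above all in neutrophil-gated cells. Muscle neutrophil-gated cells held 54 UMIs in 17 of 58 cells, 233 CPM (175 to 304), and lung neutrophil-gated cells held 2371 in 912 of 2541 cells, 397 CPM (381 to 414). The log2 ratio of muscle over lung was -0.77 (-1.19 to -0.38), and most of the 58 muscle cells sat in 1 cluster, led by Retnlg, while most of the lung cells were spread over 5. Within the Retnlg cluster Csf1 was 261 CPM (193 to 346) in muscle and 305 CPM (284 to 327) in lung, and these intervals overlap. Muscle fibroblast-gated cells followed at 120 CPM (101 to 141) and endothelial-gated cells at 44.9 CPM (38.3 to 52.3). Since endothelial-gated cells were so many, 164 of the 445 muscle Csf1 UMIs lay in them and 141 in fibroblast-gated cells. Lung fibroblast-gated cells stood at 147 CPM (98.4 to 211) from 17 cells. All 5 basophil-gated lung cells held Csf1, with 18 UMIs in all, 1250 CPM (741 to 1976), and that level rests on these 5 cells. The classes taken to lack Csf1 stood at 1.35 CPM in muscle cDC2-gated cells and 5.84 CPM in lung B-gated cells. A Csf1 UMI was seen in 35.9% of lung neutrophil-gated cells (median 2003 UMIs) and in 1.45% of B-gated cells (median 2089.5 UMIs), or in 24.8% and 0.681% after thinning to 1000 UMIs.

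Csf1 also varied among lung neutrophil-gated cells. Its level was 305 CPM in the cluster led by Retnlg and Ifitm1, 446 CPM in that led by Prss2 and Siglecf, 543 CPM in that led by Mreg and 857 CPM (785 to 935) in that led by Il1rap and Antxr2. Another cluster, of small cells, led by Cstdc4 and Stfa2l1 with a median of 741.5 UMIs, stood at 169 CPM. These clusters were built without the 10 genes, but their cells come from 1 library. Cells with a UMI of Siglecf, a lectin gene used to mark a neutrophil state in lung tumours of mice, stood at 550 CPM (511 to 590), against 353 CPM (336 to 370) in the other 2072. Their median depth was also higher, at 2584 against 1887 UMIs.

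The ligands of the related receptors are given from a list of 44 pathway genes written with earlier results of these data known. Kitl, the gene for stem cell factor, had 3226 muscle UMIs, of which 2569 were in 813 of 1088 endothelial-gated cells at 703 CPM (676 to 730) and 303 in mural-gated cells at 576 CPM (513 to 645). In lung it had 439 UMIs, led by 112 in endothelial-gated cells at 307 CPM (253 to 370) and 176 in epithelial-gated cells at 52.8 CPM. Of the 171 muscle mural-gated cells, 79 held both Il34 and Kitl. Flt3l, the FLT3 ligand gene, was sparse, with 49 UMIs in muscle and 132 in lung, where T-gated cells stood at 25.1 CPM (18.6 to 33.1). Il3 had 0 UMIs in both libraries. Il5 had 0 in muscle and 31 in lung, all in 1 ILC2-gated cell. Il5ra, the IL5 receptor alpha chain, had 0 UMIs in muscle and 49 in lung. Of the other proteins reported to bind IL34, Ptprz1 had 53 UMIs in muscle, 31 of them in Schwann-gated cells at 140 CPM, and 0 in lung. Sdc1, a marker of the plasma cell gate, had 126 UMIs in muscle and 1750 in lung, where epithelial-gated cells stood at 292 CPM.

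Among the receptors, Csf1r followed the mononuclear phagocytes. Muscle macrophage-gated cells held 428 UMIs in 78 of 90 cells, 592 CPM (537 to 651), and lung macrophage-gated cells 2475 in 588 of 1001 cells, 381 CPM (366 to 396). Classical monocyte-gated cells stood at 250 CPM (194 to 319) in muscle and 342 CPM (314 to 372) in lung, cDC2-gated cells at 148 (122 to 179) and 183 CPM (157 to 213), and neutrophil-gated cells at 108 (69.7 to 159) and 97.0 CPM (89.3 to 105). Among the classes of more than 20 cells, macrophage-gated cells stood first in both tissues and classical monocyte-gated cells next, apart beyond counting error in muscle but with overlapping intervals in lung. The lung intervals of classical and nonclassical monocyte-gated cells (322 CPM, 219 to 457) overlapped, as did those of cDC2-gated and alveolar macrophage-gated cells (142 CPM, 123 to 162), and in muscle those of cDC2-gated and neutrophil-gated cells. Fibroblast-gated cells of muscle stood at 1.70 CPM and B-gated cells of lung at 6.49 CPM as the classes that should lack it. The share of cells with a UMI was 86.7% of muscle macrophage-gated cells against 0.957% of muscle fibroblast-gated cells, and 58.7% of lung macrophage-gated cells against 1.61% of lung B-gated cells. After thinning to 1000 UMIs these shares were 41.6% and 0.478% in muscle, and 28.4% and 0.511% in lung. Class medians were 7218 and 4822 UMIs in muscle, and 4739 and 2089.5 UMIs in lung.

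The macrophage gate took cells from different clusters in the 2 tissues, and with classes taken from named clusters in place of the gate the lung level was 704 CPM. In muscle 42 of its 90 cells lay in a cluster led by Ccl8, Apoe and Ccl12, where Csf1r was 901.5 CPM (799 to 1013). In lung 153 of 1001 lay there, at 713 CPM (665 to 764). A shallow cluster led by Aif1 and Hebp1, with a median of 910 UMIs, held 299 lung macrophage-gated cells, and there Csf1r was 169 CPM. Lung epithelial-gated cells held 147 Csf1r UMIs in 51 cells, 44.1 CPM (37.3 to 51.9). Other macrophage genes were uneven in these epithelial-gated cells. C1qa stood at 6.90 CPM, against 1718 CPM in lung macrophage-gated cells, Ptprc at 5.70 against 326 CPM, and Spi1 at 3.6 against 267 CPM. Mrc1, a macrophage mannose receptor gene, stood at 79.2 CPM there, against 807 CPM in lung macrophage-gated cells. In lung B-gated cells C1qa stood at 44.1, Mrc1 at 14.3 and Csf1r at 6.49 CPM. The part of macrophage RNA in the epithelial Csf1r reading was not tested.

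Csf2ra, the alpha chain of the GM-CSF receptor, was read across neutrophils, monocytes, macrophages and dendritic cells within a narrow range. In muscle it ranged over 210 CPM in cDC1-gated cells, 273 in classical monocyte-gated, 300.2 in macrophage-gated, 339 in cDC2-gated and 353 CPM in neutrophil-gated cells, and these intervals overlapped between each neighbouring pair. In lung the corresponding levels were 236, 246, 243, 253 and 231 CPM, with 227 CPM in alveolar macrophage-gated cells and 144 CPM (112 to 182) in migratory DC-gated cells. Only the last stood below the other lung myeloid classes named here beyond counting error. Lung epithelial-gated cells, where the Csf2 ligand was read, held 4 Csf2ra UMIs, 1.20 CPM, and muscle fibroblast-gated cells held 3, 2.55 CPM. A Csf2ra UMI was seen in 84.7% of muscle cDC2-gated cells (27.8% after thinning to 1000 UMIs) and 1.44% of muscle fibroblast-gated cells (0 after thinning), at medians of 10488 and 4822 UMIs.

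Over 18 class and library groups of at least 50 cells, the gene whose pattern was most like that of Csf2ra was Spi1, with a Pearson r of 0.977 on log2(CPM + 10). Spi1 encodes PU.1, a transcription factor of myeloid cells, and the groups share 2 libraries and differ in depth. The promoter of Csf2ra is shown for this reason, beside that of Csf3r, which also holds the motif within the stretch shown. Spi1 was not among the 3 genes most like Csf3r. Both promoters are as RefSeq gives them on GRCm38.p6, with capitals on GAGGAA, the core that PU.1 and related ETS factors can read. Each run is the 120 bases before the annotated start, on the gene's strand, at chr19:61228419-61228538 (minus strand) for Csf2ra and chr4:126024539-126024658 (plus strand) for Csf3r.
Csf2ra: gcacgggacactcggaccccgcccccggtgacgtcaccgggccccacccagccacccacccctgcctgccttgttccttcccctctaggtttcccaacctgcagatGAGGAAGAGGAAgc
Csf3r: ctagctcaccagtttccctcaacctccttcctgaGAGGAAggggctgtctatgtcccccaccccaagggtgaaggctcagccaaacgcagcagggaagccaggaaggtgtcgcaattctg
In Csf2ra 2 copies abut each other, 14 and 8 bases before the start, and in Csf3r 1 copy lies 86 bases before it. GAGGAA was searched on both strands in the 250 bases before each start. It was found for 3 of the 6 genes of the set with a promoter entry (Csf2ra, Csf3r and Kit) and for 7639 of 32851 promoters in all, or 23.3%. A match is a run of letters only and says nothing on binding.

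Csf2rb, the shared beta chain, was read in the same myeloid classes and also in endothelium. In muscle it stood at 289 CPM (224 to 367) in neutrophil-gated, 256 CPM (221 to 295) in cDC2-gated, 326 CPM (261 to 403) in classical monocyte-gated and 183 CPM (153 to 217) in macrophage-gated cells. In lung the levels were 794 CPM (772 to 817) in neutrophil-gated cells, 584 CPM (517 to 657) in migratory DC-gated, 569 CPM (522 to 618) in cDC2-gated, 512 CPM (478 to 549) in classical monocyte-gated and 479 CPM (462 to 496) in macrophage-gated cells. In each of these 4 classes muscle stood below lung. Muscle endothelial-gated cells held 387 Csf2rb UMIs in 165 of 1088 cells, 106 CPM (95.6 to 117), which was 39.0% of all muscle Csf2rb UMIs. The venule-gene cells again stood highest at 356 CPM (309 to 407), against 39.4 CPM (31.3 to 48.9) with capillary genes and 19.4 CPM (8.38 to 38.2) with arterial genes. Fibroblast-gated muscle cells held 3 UMIs, 2.55 CPM. The share with a UMI was 15.2% of endothelial-gated and 1.44% of fibroblast-gated muscle cells, or 5.71% and 0.478% after thinning to 1000 UMIs.

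An alpha chain for those endothelial-gated cells was read only in part. Csf2ra was seen with Csf2rb in 2 of the 1088 cells, while Il3ra, the alpha chain of the IL3 receptor, was seen in 78 cells and with Csf2rb in 23. In muscle cDC2-gated cells 49 of 72 held both Csf2ra and Csf2rb, and in muscle classical monocyte-gated cells 18 of 27. In lung 143 of 251 classical monocyte-gated, 436 of 1001 macrophage-gated and 655 of 2541 neutrophil-gated cells held both. Their class medians were 5934, 4739 and 2003 UMIs in the same order. Not all classes followed the order of depth. Lung cDC1-gated cells, at a median of 8423 UMIs, held both in 30 of 68 cells.

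Mice carry a second, closely similar beta chain gene, Csf2rb2, whose product serves the IL3 receptor. The start of both coding sequences is shown because reads there can fail to tell the genes apart, with capitals at the 3 of 88 bases that differ (GRCm38, GENCODE M21; Csf2rb at chr15:78335207-78335294, plus strand, and Csf2rb2 at chr15:78298142-78298229, minus strand).
Csf2rb: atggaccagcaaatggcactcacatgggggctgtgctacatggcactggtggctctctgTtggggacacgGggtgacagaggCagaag
Csf2rb2: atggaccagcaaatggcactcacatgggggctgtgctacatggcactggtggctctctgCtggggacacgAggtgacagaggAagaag
Of all 50-base windows in the Csf2rb transcript 18.9% occur in that of Csf2rb2 as well, and 29.0% of those in its first 500 bases. With 90-base windows these shares were 8.43% and 14.1%. Part of the reads of a 5' library therefore cannot be assigned to either gene, and that part is smaller for longer reads. How such reads were counted is not given in the sources used here, and levels of both genes are uncertain to that extent. Csf2rb2 made up 47.6% (44.0 to 51.3) of the UMIs of the pair in muscle endothelial-gated cells and 50.9% (37.3 to 64.4) in lung pDC-gated cells. In neutrophil-gated cells it made up 13% (6.41 to 22.6) in muscle and 18.1% (17.1 to 19.1) in lung, so the split differed between classes beyond counting error.

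Csf3r, the G-CSF receptor gene, marked neutrophil-gated cells in both tissues. All 58 muscle neutrophil-gated cells held it, with 411 UMIs and 1771 CPM (1604 to 1951). In lung 1906 of 2541 held it, with 7185 UMIs and 1204 CPM (1176 to 1232). The next classes stood well below: classical monocyte-gated cells at 68.3 CPM (40.5 to 108) in muscle and 74.0 CPM (61.3 to 88.5) in lung, and macrophage-gated cells at 47.0 (32.6 to 65.7) and 25.1 CPM (21.4 to 29.2). Alveolar macrophage-gated cells of lung lay between them at 31.5 CPM (23.1 to 41.98), overlapping with macrophage-gated cells. The muscle intervals of classical monocyte-gated and macrophage-gated cells overlapped and the lung ones did not. Muscle fibroblast-gated cells held 0 UMIs and lung B-gated cells 12, 7.78 CPM. After thinning to 1000 UMIs, 77.2% of muscle and 64.0% of lung neutrophil-gated cells had a Csf3r UMI, against 0 of muscle fibroblast-gated and 1.02% of lung B-gated cells. S100a8, an abundant neutrophil gene, had a UMI in 33.1% of the lung B-gated cells. Among lung neutrophil clusters Csf3r stood at 1540 CPM with Retnlg and Ifitm1, 1064 CPM with Prss2 and Siglecf, 699 CPM with Mreg, 1618 CPM with Il1rap and Antxr2, and 580 CPM with Cstdc4. The cluster order was not that of Csf1, which was lowest of the first 4 with Retnlg and Ifitm1.

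**Figure D3:**
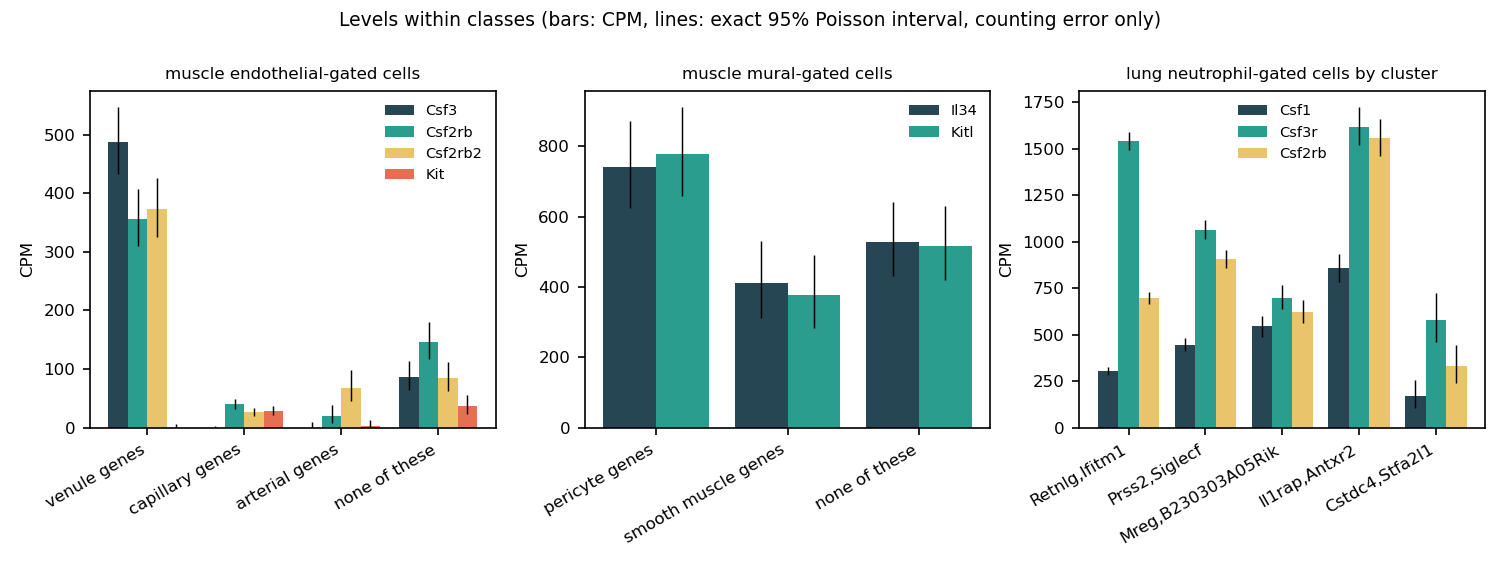
Levels in CPM (bars) with exact 95% Poisson intervals (lines) within muscle endothelial-gated cells by vessel genes (left), muscle mural-gated cells (middle) and lung neutrophil-gated cells by cluster, named by 2 leading genes (right). Csf3, Csf2rb and Csf2rb2 stand highest with venule genes, where Kit has 0 UMIs, and Csf1 and Csf2rb stand highest in the Il1rap and Antxr2 cluster. Bars of different genes are not on a common scale of molecules.

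Kit, the receptor for stem cell factor, differed between the endothelial-gated cells of the tissues. Muscle endothelial-gated cells held 81 Kit UMIs in 41 of 1088 cells, and lung endothelial-gated cells 122 in 25 of 47, so that the level was 22.2 CPM (17.6 to 27.5) in muscle and 335 CPM (278 to 400) in lung. No Kit UMI was seen in the 101 venule-gene cells of muscle, and the level was 28.2 CPM (21.4 to 36.5) with capillary genes. The endothelial cells of the tissues came from different clusters: 346 and 340 of the muscle cells lay in the 2 largest, led by Gpihbp1 and by Ccdc85a, while 23 of the 47 lung cells lay in one led by Plvap and Ackr1 and 15 in a shallow one with a median of 921 UMIs. Within the Plvap and Ackr1 cluster Kit was 22.1 CPM (13.3 to 34.5) in muscle and 323 CPM (261 to 395) in lung.

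Leukocyte classes also carried Kit. It stood at 121 CPM (67.9 to 200) in 12 muscle and 136 CPM (109 to 168) in 68 lung cDC1-gated cells, and at 74.0 CPM (51.6 to 103) in lung migratory DC-gated cells. Lung neutrophil-gated cells held 160 Kit UMIs in 104 of 2541 cells, at the lower level of 26.8 CPM. Among their clusters Kit was 18.5 CPM (13.6 to 24.5) with Retnlg and Ifitm1 and 53.5 CPM (36.6 to 75.5) with Il1rap and Antxr2. Innate lymphoid cells with ILC2 markers held 9 UMIs in 4 of 5 muscle cells, 544 CPM (249 to 1032), and 9 in 5 of 46 lung cells, 65.1 CPM (29.8 to 124). Lung T-gated cells with a Cd8a UMI and no Cd4 UMI stood at 70.0 CPM (49.98 to 95.3), against 11.7 CPM (4.72 to 24.2) in those with Cd4 alone. No cell met the rule for mast cells in either library. Muscle fibroblast-gated cells held 0 Kit UMIs and lung B-gated cells 5, 3.24 CPM. A Kit UMI was seen in 53.2% of lung endothelial-gated and 0.643% of lung B-gated cells, where the class medians were 4677 and 2089.5 UMIs. Thinned to 1000 UMIs, the shares were 33.3% and 0.341%.

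Flt3 was the receptor of the dendritic classes. It stood at 243 CPM (164 to 347) in 10 of 12 muscle cDC1-gated cells and at 314 CPM (272 to 360) in 50 of 68 lung cDC1-gated cells. In lung pDC-gated cells held 520 CPM (368 to 714), in 10 of 12 cells, and migratory DC-gated cells 256 CPM (212 to 306). The pDC-gated and migratory DC-gated intervals did not meet, while the cDC1-gated interval overlapped with that of migratory DC-gated cells. The cDC2-gated cells stood at 13.5 CPM (6.46 to 24.8) in muscle and 34.6 CPM (23.8 to 48.5) in lung, and lung B-gated cells at 21.4 CPM. Of the 33 lung cDC2-gated Flt3 UMIs, 27 lay in the cluster led by Itgae, Wdfy4 and Clec9a, at 104 CPM (68.8 to 152). That cluster had 27 such cells, and 40.7% of them held a Flt3 UMI. In the cluster led by Retnla and Lyz1, which both tissues share, Flt3 was 12.7 CPM (5.80 to 24.1) in muscle and 5.40 CPM (1.11 to 15.8) in lung, so the order turned there, with overlapping intervals. T-gated cells of lung, the class taken to lack Flt3, held 1 UMI in 555 cells, and muscle fibroblast-gated cells held 0. After thinning to 1000 UMIs, 25.4% of lung cDC1-gated and 0 of T-gated cells had a UMI, at class medians of 8423 and 2981 UMIs. All 34 Kit-positive lung cDC1-gated cells also held Flt3, and 6 of the 8 in muscle did.

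Muscle and lung were then set side by side for the 5 classes with at least 20 cells in each, over all genes with at least 10 UMIs in both libraries together. A gene was called apart when its ratio was at least 4-fold, the interval excluded 2-fold and the higher library held at least 30 UMIs. Genes that reached 10 UMIs but not 30 in the higher library were in the totals but could not be called. Of the set these were Il34, Csf3 and Flt3 in neutrophil-gated cells. They were Csf1 and Flt3 in classical monocyte-gated and Csf3 and Flt3 in macrophage-gated cells. In neutrophil-gated cells 0 of the 9 genes of the set with at least 10 UMIs were called, where 1.53% of 11667 genes were. In classical monocyte-gated cells 0 of 6 were called, against 0.896% of 9037 genes, and in macrophage-gated cells 0 of 8, against 1.81% of 12271 genes. In cDC2-gated cells 1 of 5 was called, Kit, where 2.8% of 8958 genes were, and in endothelial-gated cells 2 of 6 were, Kit and Csf3, where 2.99% of 12014 genes were. No count here is tested, and with 1 library per tissue a difference between tissues cannot be told apart from one between libraries.

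The called genes had these values. Csf3 in endothelial-gated cells had 340 UMIs in muscle and 0 in lung. The 47 lung cells give a floor of 8.23 CPM for 3 UMIs over the class, and by that floor muscle was 11.3-fold higher. The exact interval of the log2 ratio begins lower, at 3.19, and the floor value ran down to 2.96 over the alternatives. Both the floor and the interval count UMIs and do not cover which cells were sampled. The muscle UMIs lay in 29 of 1088 cells, 108 of them in 1 cell, and only 47 lung cells were read, so neither value is a firm lower bound. Kit in endothelial-gated cells had a log2 ratio of -3.92 (-4.34 to -3.50). For Kit in cDC2-gated cells, 3 UMIs in muscle and 42 in lung gave 4.04 and 44.0 CPM, a log2 ratio of -3.44 (-5.78 to -1.80). The cDC2-gated cells differed in cluster: 67 of 72 muscle cells lay in a cluster led by Retnla and Lyz1, while 66 of the 141 lung cells lay there and 27 in a cluster led by Itgae, Wdfy4 and Clec9a, a cDC1 gene. In the shared cluster Kit was 4.23 CPM (0.872 to 12.4) in muscle and 19.8 CPM (9.88 to 35.4) in lung, and those intervals overlap.

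Differences short of 4-fold ran both ways. Csf2rb had log2 ratios of -1.46 (-1.83 to -1.11) in neutrophil-gated, -0.65 (-0.99 to -0.33) in classical monocyte-gated, -1.39 (-1.65 to -1.14) in macrophage-gated and -1.15 (-1.40 to -0.91) in cDC2-gated cells, but 0.88 (0.24 to 1.59) in endothelial-gated cells. With classes taken from named clusters the macrophage ratio of Csf2rb was -0.35, and with the stricter gate margin of 2 markers the classical monocyte ratio was -0.30. In the Ccl8, Apoe and Ccl12 cluster of macrophage-gated cells Csf2rb was 173 CPM (130 to 226) in muscle and 254 CPM (226 to 285) in lung. Csf1r in macrophage-gated cells had a ratio of 0.64 (0.48 to 0.78) and Csf3r in neutrophil-gated cells 0.56 (0.41 to 0.70). Neutrophil-gated cells of the Retnlg and Ifitm1 cluster alone lay closer for Csf3r, at 1834 CPM (1644 to 2041) in muscle and 1540 CPM (1492 to 1588) in lung. Csf2rb there stayed apart, at 294 CPM (221 to 384) in muscle and 698 CPM (666 to 731) in lung. Csf2ra stood slightly higher in muscle, at 0.61 (0.28 to 0.94) in neutrophil-gated, 0.30 (0.09 to 0.51) in macrophage-gated and 0.42 (0.16 to 0.68) in cDC2-gated cells. In classical monocyte-gated cells its ratio was 0.15 (-0.23 to 0.52). In the Retnlg and Ifitm1 cluster of neutrophil-gated cells Csf2ra was 348 CPM (268 to 445) in muscle and 244 CPM (225 to 264) in lung. In the Ccl8, Apoe and Ccl12 cluster of macrophage-gated cells it was 231 CPM (181 to 291) and 221 CPM (195 to 250). The Retnla and Lyz1 cluster of cDC2-gated cells gave 337 CPM (295 to 382) and 324 CPM (278 to 375). The last 2 pairs of intervals overlap. With a gene at 0 in a library ranked at the far end of its own direction, the median log2 ratios of the set were -0.77, -0.55, 0.22, -1.15 and 0.78 in neutrophil-, classical monocyte-, macrophage-, cDC2- and endothelial-gated cells. Over all genes they were -0.69, -0.06, 0.00, -0.22 and -0.02 in the same order. With such genes put at the bound that 3 UMIs give, the neutrophil median turned sign, to 0.56 for the set and 0.13 over all genes, since a bound above 0 for a gene with no muscle UMI gives no direction. The other set medians were then -0.28, 0.44, -1.15 and 0.78.

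**Figure D4:**
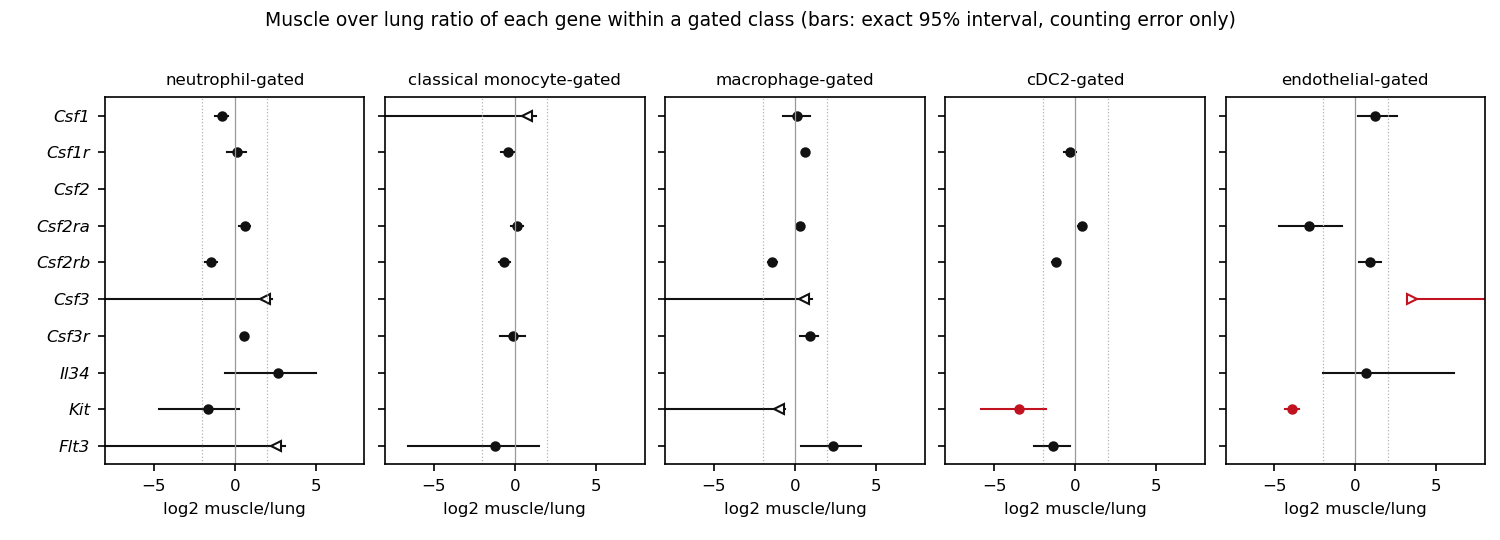
Log2 ratio of muscle over lung (x axis) for each gene with at least 10 UMIs (y axis) in the 5 compared classes, with exact 95% intervals. Dotted lines mark 4-fold, red marks the called genes, and an open triangle marks a gene at 0 UMIs in a library, put at the floor of 3 UMIs there. A triangle is a bound and not an estimate, the ratio lies on the side to which it points, and one pointing left stands for 0 muscle UMIs even where it is drawn right of 0. Kit lies at -3.92 in endothelial-gated cells, where the interval of Csf3 begins at 3.19, and Kit at -3.44 in cDC2-gated cells.

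Of the 44 pathway genes, 35 to 39 had at least 10 UMIs in a class, and some of these had too few to be called. The share called was 7.69% in neutrophil-gated, 5.56% in classical monocyte-gated, 2.56% in macrophage-gated, 7.89% in cDC2-gated and 5.71% in endothelial-gated cells, against 1.53%, 0.896%, 1.81%, 2.8% and 2.99% over all genes. These shares rest on 1 to 3 genes each and were not tested. In neutrophil-gated cells 3 of 39 were lower in muscle and 0 higher: Csf2rb2 at 43.1 against 175 CPM in lung, Cish at 56.0 against 227 CPM, and Id2, a transcriptional inhibitor, at 81.9 against 348 CPM. Cish, a STAT5-induced feedback inhibitor of cytokine receptors, was also lower in muscle classical monocyte-gated cells, at 34.1 against 137 CPM, and in macrophage-gated cells, at 8.30 against 83.3 CPM. In classical monocyte-gated cells 2 of 36 were lower and 0 higher, the other being the survival gene Bcl2l1 with 1 UMI, at 3.79 against 56.6 CPM and a log2 ratio of -3.90 (-9.22 to -1.38), and in macrophage-gated cells Cish was the 1 of 39 called. In cDC2-gated cells 3 of 38 were lower and 0 higher, among them Irf8, a dendritic cell transcription factor, at 17.5 against 111 CPM, and Ccnd2, a cyclin named here after its values were seen, at 57.9 against 280 CPM. These cDC2 values were not split by cluster, and 27 of the lung cells lay in the Itgae, Wdfy4 and Clec9a cluster. In endothelial-gated cells 2 of 35 were higher in muscle and 0 lower, Socs2, a feedback inhibitor, at 108 against 22.0 CPM and Ccnd2 at 98.5 against 22.0 CPM. The list's median log2 ratios, ranked as for the set, were -0.17, -0.06, -0.09, -0.40 and 0.57 in the class order above.

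Genes among the 3 most like each of the set, by Pearson r over the same 18 groups, are given as a description, and the groups share 2 libraries and differ in depth. For the ligands they were Map1lc3b (0.869), Grina (0.868) and Ccdc126 (0.862) for Csf1, and Muc20 (0.997), Gm13481 (0.992) and Grb7 (0.99) for Csf2. Csf3 was closest to Bdkrb2 (0.978), Mall (0.977) and Clca3a1 (0.970), and Il34 was close to Ajuba (0.977) and Arhgef17 (0.976). Nearly all UMIs of Csf2, Csf3 and Il34 lay in 1 or 2 of the groups, so these values rest on few points. Among the receptors, Csf1r was close to Adssl1 (0.929) and Mfsd13a (0.920), and Csf2ra, after Spi1, to Pirb (0.957) and Nfam1 (0.941). The closest to Csf2rb was its copy Csf2rb2 (0.931), then Cd80 (0.904) and Bcl2a1a (0.899). Csf3r was closest to Acod1 (0.977), Tlr6 (0.959) and Slfn4 (0.955), Flt3 to Bcl2l14 (0.914), Pkib (0.894) and Rogdi (0.890), and Kit, with the lowest values, to Dnajc8 (0.847), Slc25a38 (0.84) and Jak2 (0.793).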

How the data were processed

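The deposited matrices hold UMI counts per gene and barcode that the authors made with Cell Ranger 7.0.1 on GRCm39, per the submitters' processing notes; how reads shared by similar genes were counted is not given in the sources used here. The lowest barcode held 500 UMIs, and totals were 14056163 UMIs in 5547 muscle and 34751225 UMIs in 8481 lung barcodes. Of these, 2243 and 8194 passed the limits on genes and mitochondrial UMIs. Doublet-like barcodes (100 and 556, or 4.46% and 6.79%) were removed by a neighbour score against simulated doublets. Counts were summed per class and library and given as CPM of all UMIs, with exact Poisson, Clopper-Pearson and conditional binomial intervals (SciPy 1.17.1). Shares of cells were also taken after thinning to 1000 UMIs. Clusters (leidenalg 0.10.2, 30 components, 2000 variable genes, the 10 genes left out, 32 clusters) served as an alternative and to describe classes. TMM factors came from edgeR 4.0.16. The rule for calls was tested on simulated data.

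All 10 genes are named, with each ligand and receptor chain of the pathway list, the 2 highest and 2 lowest called of its other genes per class, and the genes of closest pattern; a few genes that this rule names are not reported here. The genes, marker lists and pathway list were chosen with earlier results of these data known, and vessel, mural, T and epithelial subsets after their values were seen. Sequences are from RefSeq and GENCODE on GRCm38, not the build of the counts, and no coordinate was converted. Csf1r, Csf2rb, Csf3 and Il34 have no promoter shown.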

Additional observations from a re-analysis of the deposited data

Results flagged for a closer look

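Barcodes over the 10% mitochondrial limit entered no comparison, and 17 readings of the set in them stood above the limit that a count of 0 allows (0.983 CPM over 2222 muscle barcodes with at least 200 genes, 5.23 CPM over 224 lung ones). In muscle these were Il34 at 65.2, Csf2rb at 37.3, Csf1 at 32.4, Csf2ra at 24.9, Csf3r at 21.6, Csf1r at 15.1, Kit at 10.5 and Csf3 at 8.52 CPM. In lung they were Il34 at 174, Csf3r at 99.4, Csf2rb at 97.7, Csf2ra at 62.8, Csf1r at 48.8, Csf2 at 36.6, Csf1 at 22.7, Csf3 at 19.2 and Flt3 at 6.98 CPM, the last from 4 UMIs with an interval that reaches below the limit.

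The same gate applied to these barcodes put most UMIs of Il34, Csf2 and Csf3 in the classes named in the report. For Csf1, neutrophil-gated barcodes held 9 of 99 UMIs in muscle, where 42 were ungated and 32 endothelial-gated. In lung they held 5 of 13, and 5 more were epithelial-gated. Among kept cells the neutrophil gate held 54 of 445 Csf1 UMIs in muscle and 2371 of 2971 in lung. By level, neutrophil-gated barcodes stood highest, at 344 CPM (157 to 653) in muscle and 106 CPM (34.3 to 247) in lung. Next came fibroblast-gated barcodes at 106 CPM (56.4 to 181) in muscle and macrophage-gated ones at 25.2 CPM (0.638 to 140) in lung. These intervals overlap with those of the neutrophil gate. Mural-gated barcodes of muscle (131) held 115 of 199 Il34 UMIs at 534 CPM (441 to 641), and endothelial-gated ones (579) held 18 of 26 Csf3 UMIs at 17.1 CPM (10.1 to 27.0). Epithelial-gated barcodes of lung (64) held 84 of 100 Il34 UMIs at 273 CPM (218 to 338), 19 of 21 Csf2 UMIs at 61.8 CPM (37.2 to 96.5) and 11 of 11 Csf3 UMIs. Neutrophil-gated barcodes of muscle (15) held 60 of 66 Csf3r UMIs.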

How the results depend on the processing

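No paired analysis was possible because each tissue has 1 library and no result comes from a test. No level or ratio of a called gene changed direction under any alternative tried. The members called kept their number in all 5 classes, with 1 exception: with a gate margin of 2 markers, chosen after the data were seen, 0 genes were called in cDC2-gated cells, where the Kit log2 ratio was -3.20. The sign turned for 8 ratios under at least 1 alternative, 2 of which (Csf1 in classical monocyte-gated and Kit in macrophage-gated cells) are bounds with 0 muscle UMIs. The others include Csf1 in macrophage-gated (-1.69 to 0.21) and Flt3 in cDC2-gated cells (-1.49 to 0.69).

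Levels in CPM moved beyond counting error as follows. Csf2 in lung epithelial-gated cells was 176 with the limit at 20% mitochondrial UMIs, 194 without its top 2 cells, 391 with the margin of 2, 455 by clusters, 481 with doublet-like cells kept and 539 with totals free of mitochondrial and rRNA genes. Csf3 in muscle endothelial-gated cells was 54.7 without its top 2 cells. Csf1 in lung neutrophil-gated cells was 374 with doublet-like cells kept, 430 by clusters, 435 with those totals and 581 with TMM. Csf3r there was 1107, 1232, 1318 and 1760 in the same order, 1264 with 1 more marker and 1286 with the margin of 2. Csf1r in lung macrophage-gated cells was 704 by clusters, 417 with those totals, 427 with TMM and 421 with the margin of 2, and in muscle 857 by clusters and 676 with the margin. Flt3 in lung cDC1-gated cells was 269 by clusters, Csf2rb in muscle endothelial-gated cells 118 with those totals, and Il34 in muscle mural-gated cells 474 with TMM. The cause was not tested. TMM gives no ratio for classical monocyte- and endothelial-gated cells, which have under 50 cells in a library. Shares of positive cells moved with thinning in 18 of 20 readings.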
